A study of Mus musculus with 4 samples.

Results

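The genes described here are 10 genes of the secretory pathway and its stress response, Hspa5, Hsp90b1, Calr, Pdia4, Pdia6, Sdf2l1, Creld2, Xbp1, Ddit3 and Serpinh1. They were chosen by name from the 31053 genes that the count tables list, and all 10 were found there (identifiers ENSMUSG00000026864, ENSMUSG00000020048, ENSMUSG00000003814, ENSMUSG00000025823, ENSMUSG00000020571, ENSMUSG00000022769, ENSMUSG00000023272, ENSMUSG00000020484, ENSMUSG00000025408 and ENSMUSG00000070436, in this order). Their levels were followed by cell class and by day in 4 single-cell RNA-sequencing libraries of the carotid artery of C57BL/6 mice, of which 1 was made before injury (day 0) and the others on days 3, 7 and 14 afterwards. The injury is made by drawing a wire through the vessel, which strips the endothelium. The mice were 11 weeks old before injury. Per the study they were males on no high-fat diet, each library pooled the vessels of several animals, and thrombosed ones were discarded. The study gives digestion as the same for all time points, and describes removal of dead cells for the wire injury samples. With 1 pooled library a day and no replicates, a difference between days cannot be told apart from a difference between libraries, no test was made, and the 95% intervals printed below cover counting error only.

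Proteins that a cell secretes or places in its membranes fold in the endoplasmic reticulum (ER). Hspa5 encodes BiP, the heat shock chaperone of the ER, which binds unfolded chains and also keeps the stress sensors of the ER membrane inactive while it has no other work. When unfolded chains build up, these sensors switch on the unfolded protein response, through which XBP1 and ATF6 raise chaperones and degradation enzymes and the ATF4 branch raises Ddit3, the gene of CHOP, a transcription factor linked to growth arrest and cell death. Fibroblasts and smooth muscle cells of an injured artery secrete large amounts of collagen, and Serpinh1 encodes the chaperone that binds procollagen in the ER. Hsp90b1 encodes the ER form of the large heat shock chaperone family, Calr the calcium-binding lectin chaperone calreticulin, Pdia4 and Pdia6 protein disulfide isomerases, Sdf2l1 a partner of BiP and its co-chaperones, and Creld2 an ER-resident protein with EGF-like domains that is induced by ER stress.

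The promoters of the 10 genes, taken from RefSeq on the GRCm38.p6 build as 250 bases before to 50 bases after the start of each gene, were searched on both strands for the motifs of this response. The ER stress response element (CCAAT, any 9 bases, CCACG) was present in 5 of the 10. It began 65 bases before the start of Hspa5, 162 before Calr, 98 before Pdia6 and 126 before Creld2, and Hsp90b1 held 2 copies, 212 and 107 bases before its start. Among all 32851 promoters of the same length, 39 (0.119%) held it. Of the other gene lists followed here, the promoters with the element were Dnajc3, Canx and Ero1b among 22 of other ER chaperones and folding enzymes, and Syvn1 and Derl3 among 15 of ER-associated degradation. It was found in none of the 21 promoters of the ATF4 and CHOP arm and in none of the 18 of procollagen folding partners. Hspa5 also carried the core TGACGTG of the unfolded protein response element, which 2.01% of all promoters hold. The short boxes CCAAT and CCACG, which overlap the element and occur in 37.4% and 32.8% of all promoters, were both found in Pdia4 and Sdf2l1 as well, but not at the spacing of the element. No ER stress response element of the second kind (ATTGG, any base, CCACG; 0.0365% of all promoters), amino acid response core TGATGCAA (0.895%) or heat shock pair (GAA, any 2 bases, TTC; 7.86%) was found in the window of any of the 10, which says only that these letters were not there.

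The 250 bases before the start are shown for the 5 genes with the element, and for Sdf2l1, which had the lowest ratio between days 14 and 0 in fibroblast-like cells and lacks it at this spacing. Each is written 5′ to 3′ on the strand of the gene, and capitals mark the element and, in Hspa5, the separate TGACGTG core. Where the element lies on the other strand, the capitals show its reverse complement.
Hspa5, chr2:34771840-34772089, plus strand: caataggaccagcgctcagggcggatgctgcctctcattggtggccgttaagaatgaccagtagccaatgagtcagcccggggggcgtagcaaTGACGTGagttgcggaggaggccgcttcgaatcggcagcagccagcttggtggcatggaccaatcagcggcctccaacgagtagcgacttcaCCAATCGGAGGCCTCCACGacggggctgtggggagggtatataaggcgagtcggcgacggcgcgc
Hsp90b1, chr10:86705445-86705694, minus strand: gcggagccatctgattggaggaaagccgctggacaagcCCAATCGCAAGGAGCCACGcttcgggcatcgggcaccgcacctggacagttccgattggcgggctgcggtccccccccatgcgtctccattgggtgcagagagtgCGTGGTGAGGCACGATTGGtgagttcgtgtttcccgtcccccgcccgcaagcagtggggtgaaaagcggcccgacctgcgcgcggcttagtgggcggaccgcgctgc
Calr, chr8:84846932-84847181, minus strand: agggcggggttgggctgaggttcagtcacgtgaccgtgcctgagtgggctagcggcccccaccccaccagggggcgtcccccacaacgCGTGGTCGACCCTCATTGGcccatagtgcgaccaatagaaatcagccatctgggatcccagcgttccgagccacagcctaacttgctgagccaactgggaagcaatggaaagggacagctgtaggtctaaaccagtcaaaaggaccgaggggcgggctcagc
Pdia6, chr12:17266339-17266588, plus strand: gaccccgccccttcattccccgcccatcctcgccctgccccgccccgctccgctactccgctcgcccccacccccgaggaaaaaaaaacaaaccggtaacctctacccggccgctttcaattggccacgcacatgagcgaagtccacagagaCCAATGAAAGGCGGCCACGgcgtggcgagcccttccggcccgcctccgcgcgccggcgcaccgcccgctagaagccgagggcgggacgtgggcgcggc
Creld2, chr15:88819396-88819645, plus strand: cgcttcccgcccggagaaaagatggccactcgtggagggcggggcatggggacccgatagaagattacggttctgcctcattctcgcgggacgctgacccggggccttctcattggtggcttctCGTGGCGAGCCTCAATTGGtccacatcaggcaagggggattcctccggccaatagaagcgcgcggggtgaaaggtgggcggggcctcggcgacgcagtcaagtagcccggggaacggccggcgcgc
Sdf2l1, chr16:17132384-17132633, minus strand: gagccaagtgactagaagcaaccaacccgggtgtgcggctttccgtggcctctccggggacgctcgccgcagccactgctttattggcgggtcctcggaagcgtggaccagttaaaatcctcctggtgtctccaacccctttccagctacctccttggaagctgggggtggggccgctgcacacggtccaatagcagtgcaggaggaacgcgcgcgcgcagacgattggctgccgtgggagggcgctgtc

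The libraries of days 0, 3, 7 and 14 kept 329, 1508, 2693 and 1091 cells, with median UMI counts (unique molecular identifiers, counted molecules) of 5688, 4806, 6317 and 9481. The 10 genes gave 0.715%, 0.474%, 0.424% and 0.505% of all UMIs of these cells. Cells were clustered without the 10 genes and named by marker genes, each name standing for resemblance alone, and 500 of 5621 cells (8.90%) stayed unnamed. Fibroblast-like cells, which had the highest summed level of the 10 genes, made up 238 of 329 cells at day 0 and 221 of 2693 at day 7. The part of cell composition in the shares of all UMIs above was not tested. Smooth muscle-like cells numbered only 21 at day 0, of which 9 were copies of the kind described next, so that this class is followed from day 3. Of the cell barcodes, 217 occurred in more than 1 library, 152 in those of days 0 and 3, 64 in those of days 7 and 14 and 1 in those of days 3 and 7. The copy with fewer UMIs held a median of 1.31% of the UMIs of the other, 732 against 44903. Such copies made up 94 of the 203 fibroblast-like cells of day 3 but 1.63% of their UMIs, and without them no level of the 10 genes in a fibroblast-like, smooth muscle-like, monocyte/macrophage-like, dendritic-like or neutrophil-like group that could still be formed moved by more than 3%.

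Levels are given as UMIs of a gene per 1000000 UMIs summed over the cells of a class and day (CPM), and a range in brackets is the exact Poisson interval. Fibroblast-like cells had the highest summed level of the 10 genes in each of the 4 libraries, among the classes with at least 20 cells there. At day 7 the sum was 8678 CPM in fibroblast-like cells (8597 to 8760), 5204 in smooth muscle-like cells (5091 to 5319), 4984 in endothelial-like cells (4826 to 5146), 3009 in monocyte/macrophage-like cells (2975 to 3043), 2827 in dendritic-like cells (2777 to 2877), 1920 in neutrophil-like cells (1782 to 2066), 1831 in NK cell-like cells (1748 to 1916) and 1740 in T cell-like cells (1686 to 1795). The intervals of smooth muscle-like and endothelial-like cells overlapped, as did those of neutrophil-like, NK cell-like and T cell-like cells with their neighbours in this order. Within the library of day 7, the fibroblast-like sum was 1.67 times the smooth muscle-like sum (95% interval of the ratio 1.63 to 1.71), 2.88 times the monocyte/macrophage-like sum (2.84 to 2.93) and 4.99 times the T cell-like sum (4.83 to 5.15). The median log2 ratio of the 10 genes against monocyte/macrophage-like cells was 1.13, beside 0.02 over all genes compared in that pair. The order did not hold for each gene: Sdf2l1 stood at 159 CPM in monocyte/macrophage-like and 180 in dendritic-like cells of day 7, above the 109 of fibroblast-like cells, and Xbp1 and Ddit3 were highest in neutrophil-like cells.

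**Figure D1:**
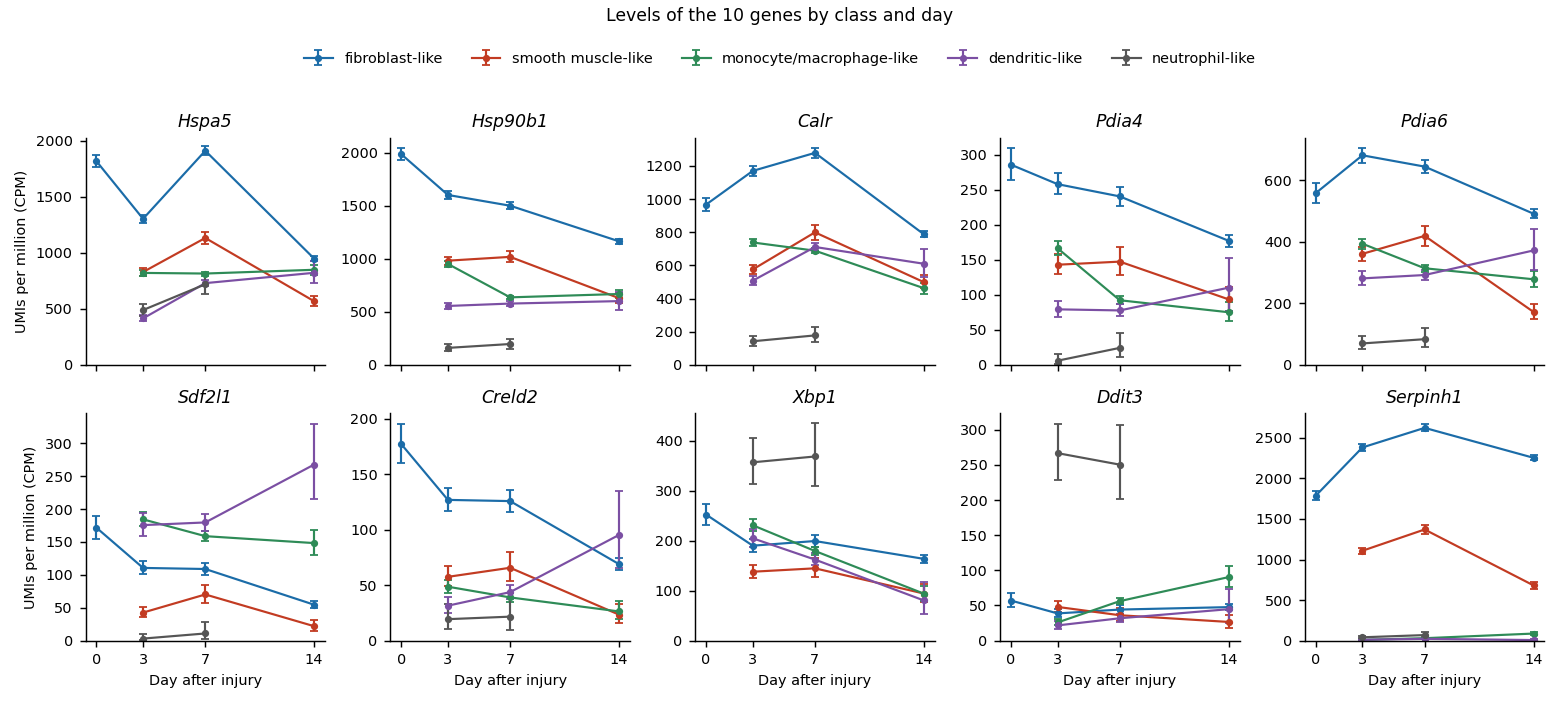
Levels of the 10 genes in CPM (vertical axes from 0) against the day after injury in 5 classes, with each point 1 library and bars giving exact Poisson 95% intervals; smooth muscle-like cells are shown from day 3. Fibroblast-like cells lie highest for Hspa5, Hsp90b1, Calr, Pdia4, Pdia6 and Serpinh1 up to day 14, and neutrophil-like cells for Xbp1 and Ddit3 at days 3 and 7.

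In fibroblast-like cells the chaperone genes were lower at day 14 than before injury, while the collagen chaperone was not. Hspa5 on days 0, 3, 7 and 14 stood at 1818 CPM (1762 to 1874), 1303 (1270 to 1337), 1910 (1872 to 1949) and 948 (928 to 968). Day 7 was thus close to day 0, and day 14 was 0.521 times day 0 (0.502 to 0.541). Hsp90b1 was at 1987, 1602, 1501 and 1165 CPM on the 4 days and ended at 0.586 times day 0 (0.566 to 0.608). Calr, at 967, 1170, 1279 and 788 CPM, was highest at day 7 and ended at 0.815 times day 0 (0.776 to 0.855). These values rested on 238, 203, 221 and 556 fibroblast-like cells, with median UMI counts of 8035, 1829, 14650 and 17399.

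Of the disulfide isomerases, Pdia4 stood at 286, 258, 240 and 177 CPM on days 0, 3, 7 and 14 in fibroblast-like cells, and day 14 was 0.620 times day 0 (0.565 to 0.680). Pdia6 was at 558, 681, 645 and 492 CPM, so that days 3 and 7 lay above day 0 and day 14 at 0.880 times it (0.826 to 0.938). The partners of the chaperones differed most. Sdf2l1 stood at 172 CPM (155 to 190) at day 0, 111 and 109 at days 3 and 7, and 54.5 (49.8 to 59.6) at day 14, a ratio of 0.317 (0.277 to 0.364). Creld2 was at 177, 127, 126 and 68.9 CPM and ended at 0.389 times day 0 (0.342 to 0.442).

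Of the transcription factors, Xbp1 stood at 253, 190, 199 and 164 CPM in fibroblast-like cells, and day 14 was 0.648 times day 0 (0.588 to 0.716). Its mRNA is spliced by the sensor IRE1 to give the active factor, and these counts do not tell the spliced form from the unspliced. Ddit3 was at 57, 38.6, 44.1 and 47.6 CPM, and the interval of its ratio of day 14 to day 0 (0.835, 0.684 to 1.03) spanned 1. Serpinh1 was at 1787 (1732 to 1843), 2383, 2624 and 2255 CPM (2224 to 2286). Its ratios to day 0 were 1.33, 1.47 and 1.26 (1.22 to 1.31). It was thus the only gene of the 10 above its day 0 level at day 14, whereas at days 3 and 7 Calr and Pdia6 also stood above theirs, as did Hspa5 at day 7 (1.05, 1.01 to 1.09). Without the deepest 5% of cells Hspa5 at day 7 was at 0.987, and by the mean of each cell's CPM Calr at day 3 was at 1.00.

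A gene was compared between 2 days where the pooled level would give at least 20 UMIs in the shallower group, and at least 1.5 times higher or lower was the fold counted. At day 3 against day 0, 1 of the 10 genes was lower by that fold in fibroblast-like cells (Sdf2l1, 0.643) and 0 were higher, where 20.6% of all 8464 genes compared were lower and 15% were higher. By the mean of each cell's CPM, Sdf2l1 was at 0.804 at day 3, short of the fold. By the same mean, 4 genes below 1 at day 3 lay above it, Hspa5 at 1.05, Hsp90b1 at 1.12, Xbp1 at 1.15 and Ddit3 at 1.13. At day 7, again 1 was lower (Sdf2l1, 0.634) and 0 were higher, beside 15.9% and 16.9% of all genes. With at most 10% mitochondrial UMIs that value was 0.675, short of the fold. At day 14, 6 of 10 were lower (Hspa5, Hsp90b1, Pdia4, Sdf2l1, Creld2 and Xbp1) and 0 were higher, beside 9.8% and 11.5% of all 8656 genes. The median log2 ratio of the 10 genes at day 14 was -0.66, and that of all genes was -0.04. At day 14 against day 7, 4 of 10 were lower (Hspa5 at 0.496, Sdf2l1 at 0.501, Creld2 at 0.548 and Calr at 0.616) and 0 were higher, beside 10.8% and 12.5% of all genes. By the mean of each cell's CPM, Creld2 was at 0.724 and Calr at 0.784 there, short of the fold. Summed over the 10 genes, the level of day 14 was 0.764 of that of day 0 (0.751 to 0.777) and 0.710 of the day 7 level (0.701 to 0.719). When cells instead of UMIs were weighted equally, by the mean of each cell's CPM, Xbp1 stood at 0.912 and Pdia4 at 0.689 at day 14 against day 0. Both were then short of the fold. Over days 0, 3, 7 and 14 the 10 fibroblast marker genes summed to 40120, 13213, 16302 and 29737 CPM in these cells, the monocyte/macrophage markers to 118, 423, 307 and 310, and the immediate early genes to 4864, 5109, 7206 and 11134, and their part in the results was not tested.

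**Figure D2:**
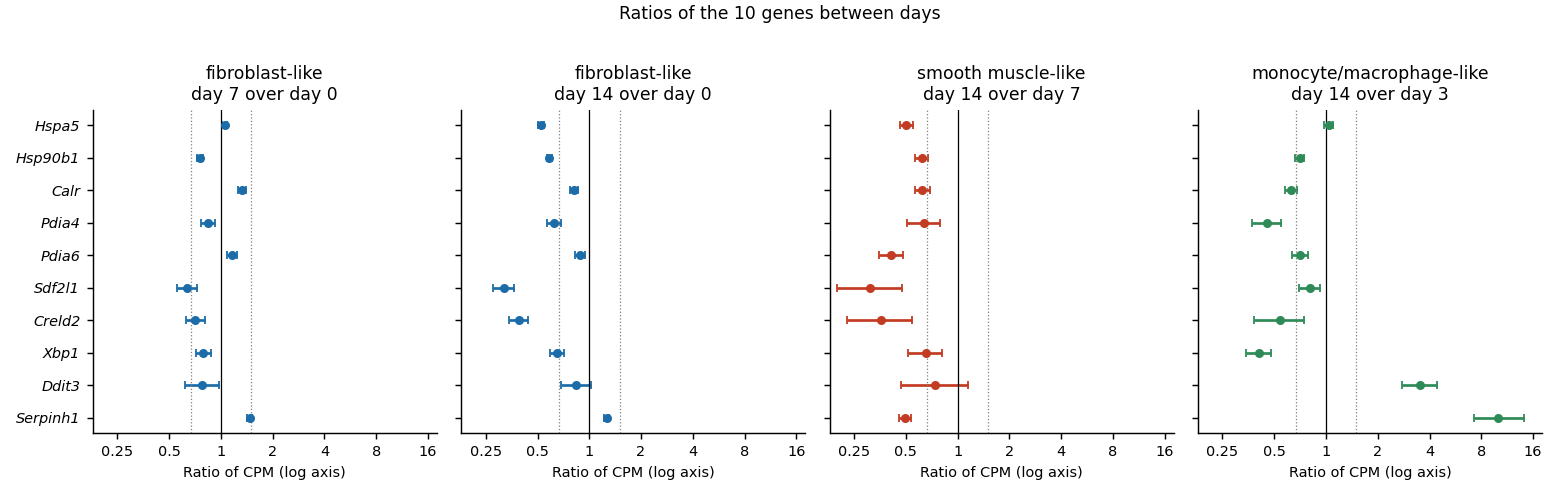
Ratio of CPM between 2 days (log axis) for each of the 10 genes in fibroblast-like, smooth muscle-like and monocyte/macrophage-like cells, with exact 95% intervals for counting error; the solid line marks 1 and the dotted lines 1.5 times higher and lower. In fibroblast-like cells of day 14 Sdf2l1 lies lowest, at 0.317, and Serpinh1 alone lies above 1.

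The difference of day 14 was also present inside the groups that formed when the 3 structural classes (fibroblast, smooth muscle, endothelial) were clustered by themselves. In the sub-cluster led by AI507597 and Rbp4, Hspa5 stood at 1790 CPM in 138 cells of day 0 and at 877 in 28 cells of day 14. In that led by Igfbp5 and Sema3c it stood at 2088 CPM in 24 cells of day 0 and at 961 in 85 cells of day 14. Between days 7 and 14 it was at 1993 and 1051 CPM in the sub-cluster led by C1qtnf3 and Cilp, and at 2087 and 793 in that led by Rgs5 and Vstm4. It was 1607 and 890 CPM at days 0 and 14 in the sub-cluster led by Cd74 and H2-Aa, and 1506 and 600 in that led by Isg15 and Ifit3. The sub-cluster led by Cd74 and H2-Aa held few UMIs for its cells. Its 49 fibroblast-like cells of day 0 gave 3.13% of the fibroblast-like UMIs of that day, and its 97 of day 14 gave 1.85%. Hspa5 was therefore lower at day 14 in all 6 sub-clusters of mostly fibroblast-like cells that held at least 20 cells of day 14 and of day 0 or 7. In the first 4, Sdf2l1 followed, at 136 and 71.2 CPM, 328 and 83.3 CPM, 82.1 and 56.2 CPM, and 123 and 28.9 CPM in the same order. In the last 2 it rested on 7 to 12 UMIs a day, at 99.5 and 41.4 CPM with Cd74 and H2-Aa and at 96.6 and 38.4 CPM with Isg15 and Ifit3. Serpinh1 was higher at day 14 in the 4 pairs with day 0, at 1885 and 2229 CPM, 1425 and 1764 CPM, 1294 and 1753 CPM, and 2166 and 2757 CPM, and lower in those with day 7, at 2368 and 2318 CPM and at 2727 and 2480 CPM. Different sub-clusters hold most fibroblast-like UMIs on different days. In a sub-cluster led by Saa3 and Lcn2, 71 fibroblast-like and 40 smooth muscle-like cells of all days lie together at a median of 55387 UMIs. Its 39 fibroblast-like cells of day 3 gave 64.3% of the fibroblast-like UMIs of that day. Without this sub-cluster, Hspa5 of day 3 was at 1352 CPM and Serpinh1 at 2486.

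Cells with 1000 or more UMIs were also thinned to 1000 UMIs each, so that shares of cells can be compared at equal depth. Hspa5 was then seen in 72.7% of 209 fibroblast-like cells of day 0 (exact binomial interval 66.2 to 78.6), 59.2% of 125 cells of day 3 (50.1 to 67.9), 74.9% of 199 cells of day 7 (68.3 to 80.7) and 50.7% of 505 cells of day 14 (46.2 to 55.1). The shares of Hspa5 had the order of its CPM values, whereas without thinning they were 93.3%, 85.2%, 91% and 88.8%. The shares of Hsp90b1, Calr, Pdia4, Sdf2l1 and Creld2 were also lower at day 14 than at day 0. For Calr, Pdia4 and Sdf2l1 the intervals of these days overlapped. The share of Sdf2l1 was 5.53% at day 7 and 5.74% at day 14, although its CPM was lower at day 14. The shares of Xbp1 (18.7% at day 0 and 19.0% at day 14), Pdia6 (34.9% and 35.6%) and Ddit3 (2.87% and 4.36%) were not lower than at day 0, although their CPM was. That of Serpinh1 was higher than at day 0, as was its CPM, but with overlapping intervals of the share. At least 5 of the 10 genes were seen in 32.5%, 32%, 31.2% and 20.4% of these thinned cells, against 8% of 550 monocyte/macrophage-like cells of day 3 and 0 of 223 neutrophil-like cells of day 3, where the exact interval reaches 1.64%. Cells with under 1000 UMIs were left out, 29, 78, 22 and 51 fibroblast-like cells on the 4 days.

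The levels were also set against the collagen of a cell. Fibroblast-like cells with at least 1000 UMIs, 209, 125, 199 and 505 on the 4 days, were ordered within each day by the share of their UMIs in the chains of the fibrillar collagens (Col1a1, Col1a2, Col3a1, Col5a1, Col5a2, Col5a3 and Col11a1) and divided into 3 equal parts, and levels were taken as CPM of the UMIs outside these chains. At day 14 the collagen share was 3.06%, 6.04% and 11.4% in the lowest, middle and highest part. Serpinh1 stood at 1862, 2362 and 3023 CPM in these parts at day 14, and at 1302, 1859 and 2506 at day 0, so that it was higher with each step on both days. At day 3 it stood at 1576, 2463 and 2852 CPM. At day 7 it stood at 2414, 2985 and 2885, where the highest part lay below the middle with overlapping intervals. Hspa5 was lower with each step at day 14, at 1135, 1065 and 860 CPM, and at day 7, at 2189, 2056 and 1953 CPM. Its intervals of the lowest and middle part overlapped on days 7 and 14, as did those of the middle and highest part at day 7. Hspa5 had no such order at day 0, at 1781, 2057 and 1749 CPM, or at day 3, at 1430, 1637 and 1054 CPM. Hsp90b1, at 1362, 1257 and 1147 CPM at day 14, stood at 1864, 2172 and 2095 at day 0. Calr differed little at day 14, at 866, 840 and 838 CPM, and stood at 838, 1118 and 1057 at day 0. Sdf2l1 was lower with each step at days 0 and 14, at 216, 176 and 115 CPM and at 73.9, 60.3 and 42.2 CPM. The same order was seen at day 7, at 146, 129 and 74.6, but not at day 3, at 109, 150 and 83.8. On days 0, 7 and 14 the intervals of Sdf2l1 in the lowest and middle part overlapped. The parts also differed in median depth. In the lowest, middle and highest part it was 13927, 7946.5 and 8430 UMIs at day 0, and 1586, 42964 and 46163 at day 3. At day 7 it was 4700, 36783.5 and 17632.5 UMIs, and at day 14 it was 17458, 18520 and 19744.5. The part of depth in these values was not tested.

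**Figure D3:**
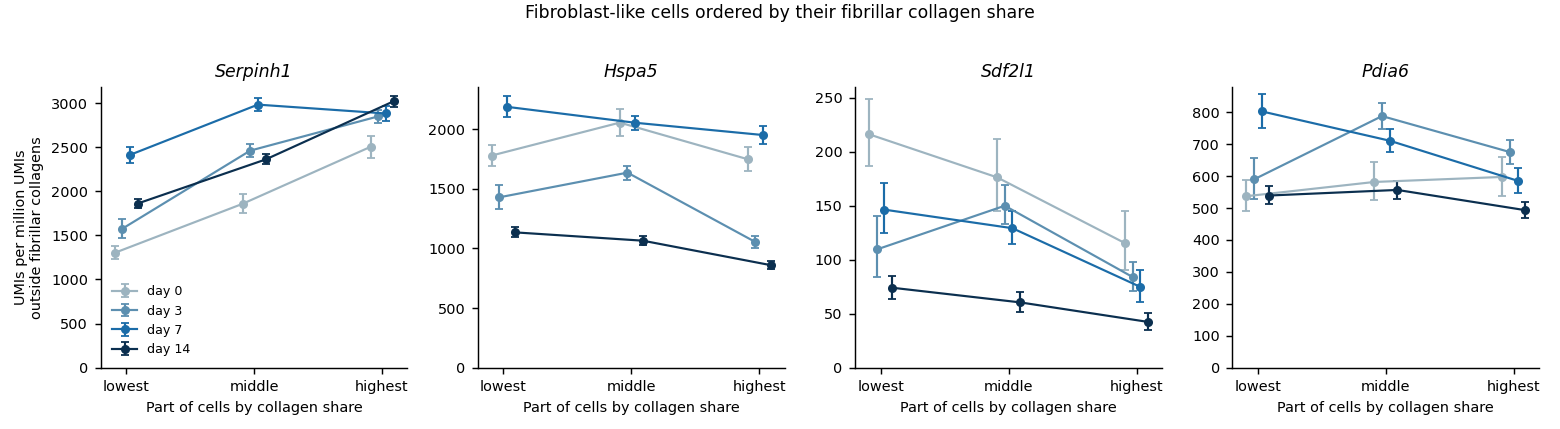
Levels of Serpinh1, Hspa5, Sdf2l1 and Pdia6 in CPM of the UMIs outside the fibrillar collagens (vertical axes from 0) in fibroblast-like cells divided into 3 equal parts by their collagen share, for each of the 4 libraries, with exact Poisson 95% intervals. At day 14 Serpinh1 lies at 1862 in the lowest and 3023 in the highest part, and Sdf2l1 at 73.9 and 42.2.

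In smooth muscle-like cells the 10 genes were lower at day 14 than at days 3 and 7, but much of this difference rested on the sub-cluster led by Saa3 and Lcn2, which held 22 of the 104 smooth muscle-like cells of day 3, 17 of the 67 of day 7 and 1 of the 77 of day 14. Hspa5 on days 3, 7 and 14 stood at 828 CPM (795 to 863), 1132 (1080 to 1186) and 568 (527 to 610). Hsp90b1 was at 983, 1018 and 629 CPM, and Calr at 576, 800 and 499. Pdia4 was at 143, 147 and 93.4 CPM and Pdia6 at 361, 419 and 172. For each of these genes the interval of day 14 lay below both others. The same held for Sdf2l1, at 42.6, 70.1 and 21.8 CPM, for Creld2, at 57.4, 65.6 and 23.4, for Xbp1, at 138, 145 and 94.2, and for Serpinh1, at 1108, 1370 and 681. Ddit3, at 47.9, 36.0 and 26.5 CPM, had overlapping intervals on days 7 and 14. In cells thinned to equal depth as above, the shares did not all follow the CPM. Hsp90b1 was seen in 48.4%, 45.5% and 54.2% of smooth muscle-like cells on days 3, 7 and 14. Calr was seen in 26.4%, 33.3% and 36.1%. Both were highest at day 14, with overlapping intervals. Sdf2l1 was also highest there, from 4, 1 and 5 cells, and Creld2 lay between. The shares of Hspa5, Pdia4, Pdia6, Xbp1, Ddit3 and Serpinh1 were lowest at day 14. Against day 7, 9 of 10 genes were at least 1.5 times lower at day 14 and 0 higher, beside 16.5% and 9.72% of all 7003 genes. Against day 3, 7 were lower and 0 higher at day 14, beside 18.4% and 12.5%. By averaging over cells, Pdia4 (0.903), Serpinh1 (0.785), Ddit3 (0.784) and Sdf2l1 (0.719) were short of the fold there. Hsp90b1 was short of it without the sub-cluster (0.840), and Pdia6 and Creld2 stayed past it. Of the genes not counted as lower, Hspa5 was at 1.02 and Calr at 1.27 by averaging over cells, and Calr at 1.00 without the sub-cluster. At day 7 against day 3, 1 was higher (Sdf2l1, 1.65) and 0 were lower, beside 10.1% and 6.85%. Sdf2l1 was at 0.80 there without the sub-cluster and at 0.741 by averaging over cells. The summed level of day 14 was 0.540 times that of day 7 (0.519 to 0.561). Without that sub-cluster it was 0.857 times, and Calr, Pdia6 and Serpinh1 stood at 1.01, 1.03 and 1.03, while Hspa5 was at 917 CPM at day 7 and 564 at day 14. Hsp90b1 was then at 0.947, Pdia4 at 0.890 and Creld2 at 0.761. By averaging over cells, Sdf2l1 was at 0.970, Xbp1 at 0.816 and Hspa5 at 0.742 at day 14 against day 7. Each of the 9 genes was thus short of the fold under at least 1 of these settings. Fibroblast marker genes summed to 1266, 3925 and 2249 CPM in smooth muscle-like cells of days 3, 7 and 14, and smooth muscle marker genes to 21211, 15678 and 38836, and their part in the result was not tested.

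Monocyte/macrophage-like cells, followed in 562, 966 and 200 cells of days 3, 7 and 14, kept Hspa5 nearly level, at 820, 815 and 848 CPM (ratio of day 14 to day 3 1.03, 0.973 to 1.10). The other chaperones were lower later. Hsp90b1 stood at 952, 637 and 668 CPM. Calr was at 739, 689 and 463 CPM and Pdia6 at 394, 314 and 278. Sdf2l1 was at 184, 159 and 148 CPM and Creld2 at 48.6, 38.9 and 26.2. Thus all the folding genes but Hspa5 and Serpinh1 stood lower at day 14 than at day 3. Pdia4, at 166, 92.2 and 75.1 CPM, ended at 0.451 times day 3 (0.371 to 0.545). Xbp1 was at 231, 180 and 94 CPM, the last 0.407 times the first (0.342 to 0.481). Ddit3 had the opposite order, at 25.7 CPM (21.8 to 30.2), 56.1 (51.6 to 61.0) and 90.3 (76.4 to 106), and ended at 3.51 times day 3 (2.78 to 4.43).

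At day 14 against day 3, 4 of 10 genes were at least 1.5 times lower in these cells (Calr, Pdia4, Creld2 and Xbp1) and 2 higher (Ddit3 and Serpinh1), beside 18.8% and 9.15% of all 7378 genes. Centred on the median of all genes, Calr was at 0.691, short of the fold. At day 7 against day 3, 1 was lower (Pdia4, 0.554) and 2 higher (again Ddit3, at 2.18, and Serpinh1, at 3.37), beside 12.2% and 8.52%. With at most 10% mitochondrial UMIs that value of Serpinh1 was 0.915. The median log2 ratio of the 10 genes at day 14 was -0.51, beside -0.14 over all genes. The summed immediate early genes, which respond within minutes to stress and to tissue digestion, went from 5398 to 11070 and 16835 CPM on the 3 days, and all 12 of them were at least 1.5 times higher at day 14. The part of digestion in the level of Ddit3 was not tested. Serpinh1 stood at 8.58, 28.9 and 86.1 CPM on the same days, while the fibrillar collagen chains summed to 179, 639 and 1877 CPM and the 10 fibroblast marker genes to 361, 392 and 1202 CPM in the same cells. Per 100 UMIs of the collagen chains, Serpinh1 gave 4.80, 4.52 and 4.59 UMIs in monocyte/macrophage-like cells, beside 5.01, 3.77 and 3.20 in fibroblast-like cells of the same libraries. The ratio of 10.0 for Serpinh1 was 2.22 with libraries clustered separately, 2.75 without the deepest 5% of cells, 3.19 with at most 10% mitochondrial UMIs and 3.26 by the mean of each cell's CPM.

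**Figure D4:**
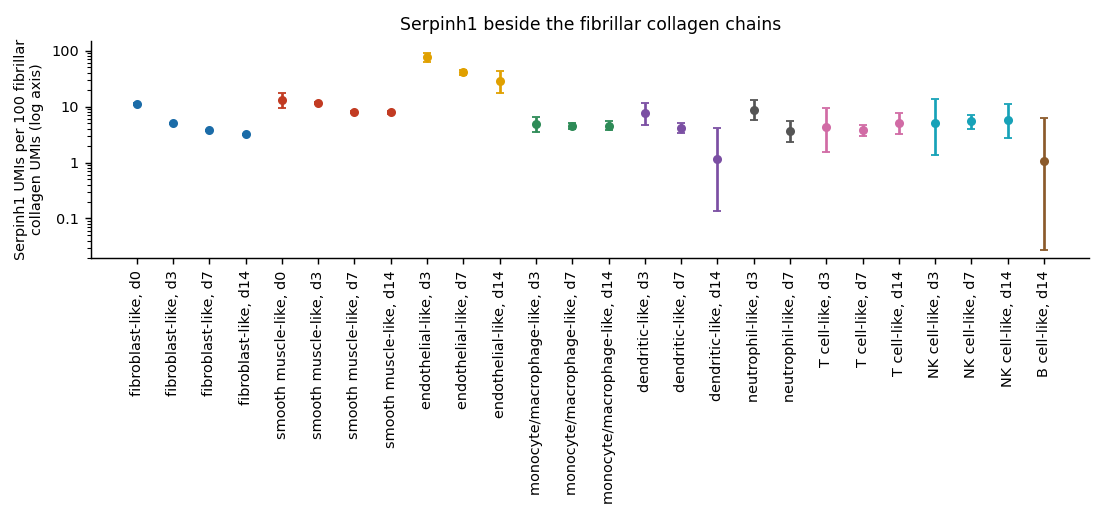
UMIs of Serpinh1 per 100 UMIs of the fibrillar collagen chains (log axis) in each class and day, with exact 95% intervals for counting error. Immune-like classes lie between 1.08 and 8.74, fibroblast-like cells between 3.20 and 11.1, smooth muscle-like cells lie at 7.84 or more and endothelial-like cells at 28.4 or more.

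Endothelial-like cells had 75.3, 40.6 and 28.4 Serpinh1 UMIs per 100 collagen UMIs at days 3, 7 and 14 and 1000, 1003 and 503 CPM of Serpinh1. These values rested on few cells: the deepest 5% of cells held 69.7% of the UMIs at day 3, 42.2% at day 7 and 56.2% at day 14, and without them Serpinh1 stood at 427, 1059 and 1022 CPM, so that day 14 was no longer the lowest. The group of day 14 held 24 cells, 6 of them copies of shared barcodes with 10.8% of its UMIs, and in it monocyte/macrophage marker genes summed to 4920 CPM, against 174 and 165 on the earlier days, and Xbp1 of 373 CPM (20 UMIs) was seen there as well. In dendritic-like cells Hspa5 was higher at later days, at 415 CPM (389 to 442), 729 (704 to 755) and 821 (727 to 924) on days 3, 7 and 14, and Sdf2l1 stood at 176, 180 and 268 CPM. Xbp1 had the reverse order, at 205, 162 and 80.4 CPM. Of the 7 genes that could be compared there at day 14 against day 3, 2 were higher by the fold (Hspa5, 1.98, and Sdf2l1, 1.52) and 1 lower (Xbp1, 0.392), beside 9.45% and 16.4% of all 2359 genes. With libraries clustered separately Hspa5 stood at 1.32, Sdf2l1 at 0.919 and the sum at 0.967 instead of 1.32.

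Among the classes of days 3 and 7, neutrophil-like cells had the highest levels of both factors and low levels of most chaperones. Ddit3 stood at 267 CPM at day 3 (229 to 309) and 250 at day 7 (202 to 307), and Xbp1 at 357 (314 to 405) and 369 CPM (310 to 436). Hspa5 was at 489 and 719 CPM, while Calr was at 142 and 178, Hsp90b1 at 160 and 197 and Pdia4 at 5.93 and 24.2 CPM. The immediate early list summed to 36837 and 33921 CPM and the ATF4 and CHOP arm to 10320 and 11178 CPM in these cells, more than in any other class and day with at least 20 cells. B cell-like cells of day 14 had 372 CPM of Ddit3 (251 to 531), from 30 UMIs in 21 cells. NK cell-like cells had 47.1, 68.4 and 143 CPM of Ddit3 on days 3, 7 and 14. These values rested on 103 UMIs in all, and the intervals of days 3 and 7 overlapped. T cell-like cells had 34.7, 41.8 and 52.0 CPM, with overlapping intervals. Over the 26 groups of class and day, the log2 level of Ddit3 went with the summed immediate early list at a Pearson r of 0.68 and Xbp1 at 0.38. With the summed ATF4 and CHOP arm, r was 0.54 for Ddit3 and 0.68 for Xbp1. With the fibrillar collagen chains and the cytosolic heat shock genes, r of both lay between -0.30 and 0.19. These values are a description over groups that share libraries.

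**Figure D5:**
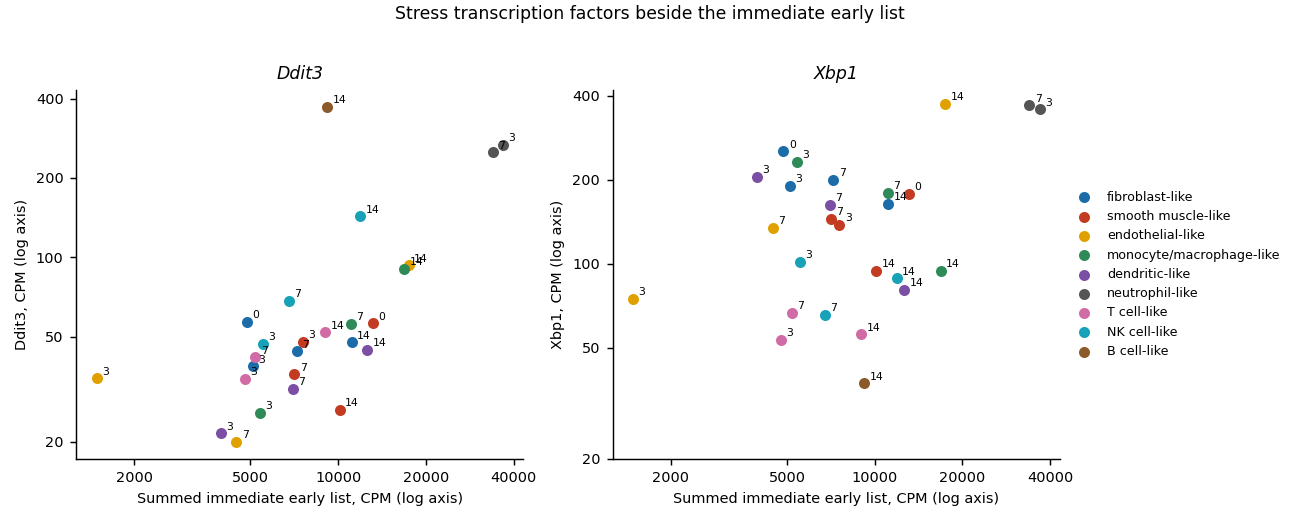
Level of Ddit3 (left) and Xbp1 (right) in CPM against the summed level of 12 immediate early genes (all axes log) in the 26 groups of class and day with at least 20 cells; the number beside a point is the day. Neutrophil-like cells lie highest on both axes but for Ddit3 of B cell-like cells, at 372 CPM, and Xbp1 of endothelial-like cells of day 14, at 373.

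Clusters inside a class differed as well, as summed over days. Among T cell-like clusters, that led by Trdc and Cd163l1, genes of gamma-delta T cells, had a summed level of the 10 genes of 3327 CPM (3105 to 3560) in 45 cells, against 1432 (1369 to 1496) and 1525 (1463 to 1588) in those led by Icos and Cd3g and by Ccl5 and Cd3d. Its Hsp90b1 was at 1058 CPM, beside 356 and 341. Among dendritic-like clusters, that led by Ccr7 and Ccl22 had the lowest sum of all clusters with at least 20 cells, 685 CPM (632 to 741), with Hspa5 at 185 CPM, beside 2899 and 694 CPM in that led by Cd209a and Clec10a. Among monocyte/macrophage-like clusters, those led by Plac8 and Il1b, by Ms4a7 and C1qa and by Acp5 and Grk3 lay at 2732, 2867 and 2841 CPM. These values were below the 3163 CPM of the class as a whole, and its other clusters are not given here.

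The wider pathway was counted in the same way in fibroblast-like cells, where 9.8% of all genes were lower and 11.5% higher at day 14 against day 0 and 15.9% and 16.9% at day 7. At day 14, 7 of 24 other ER chaperones and folding enzymes compared were at least 1.5 times lower and 2 higher (median log2 ratio -0.28), as were 4 and 0 of 18 genes of ER-associated degradation (-0.33) and 4 and 0 of 17 of the translocon and signal peptidase (-0.17). Procollagen folding and export partners had 6 of 22 higher and 1 lower (0.30), and all 7 fibrillar collagen chains were higher (2.04). The ATF4 and CHOP arm had 4 of 14 higher and 2 lower (-0.09), and none of the 8 sensor and processing genes was past the fold in either direction (-0.22). Of the 12 cytosolic heat shock genes 1 was higher and 0 lower (0.14), and of the 12 immediate early genes 9 were higher and 0 lower (1.31). At day 7, the same counts were 4 lower and 4 higher of 24, 3 and 1 of 18, 2 and 2 of 17, and 0 and 14 of 22 for the procollagen partners, with 5 lower and 4 higher of 17 in the ATF4 and CHOP arm, 0 and 1 of 8 sensors, 0 and 6 of 12 cytosolic heat shock genes and 0 and 8 of 12 immediate early genes.

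The largest and smallest ratios at day 7 against day 0 in each list were as follows. Pdia5, a disulfide isomerase, stood at 51.3 CPM against 9.87 (ratio 5.19) and Fkbp11 at 145 against 61.5 (2.35), whereas Dnajb9, a co-chaperone of BiP, was at 92.0 against 196 (0.469) and Fkbp2 at 140 against 262 (0.532). In ER-associated degradation, Vcp was at 1.57 and Ube2g2 at 1.47 times day 0, and Herpud1 at 0.560 and Erlec1 at 0.469. Of the translocon genes Srprb was at 1.88 and Sec61a1 at 1.66, with Ssr4 at 0.619 and Sec11c at 0.483. Of the procollagen partners, Plod2, which hydroxylates collagen lysines, was at 585 CPM against 92.8 (6.31) and P4ha3, a prolyl hydroxylase subunit, at 79.1 CPM against no UMI at day 0, at least 58.8-fold higher when day 0 is set to 3 UMIs. Mia2 and Fkbp7 had the smallest ratios there, 0.795 and 0.764. Of the 8 sensor and processing genes, Atf6b was at 1.60 and Creb3l2 at 1.24, and Creb3l1 and Atf6 were at 0.915 and 0.722. In the ATF4 and CHOP arm, Atf3 was at 5.63 and Asns at 4.71, with Stc2 at 0.207 and Txnip at 0.135, while Ddit3 itself was at 0.774. Cytosolic heat shock genes were led by Dnajb1 at 5.84 and Hsph1 at 2.12, and their lowest were Dnaja1 at 0.95 and Hsp90ab1 at 0.947.

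In monocyte/macrophage-like cells of day 14 against day 3, the ATF4 and CHOP arm had 4 of 13 genes at least 1.5 times higher and 3 lower (median log2 ratio 0.36), where 9.15% of all genes were higher and 18.8% lower. Atf3 stood at 5.82 and Ppp1r15a at 3.50 times day 3, and Ppp1r15b and Slc7a11 at 0.657 and 0.547. Of other ER chaperones and folding enzymes, 2 of 21 were higher and 5 lower (-0.21), with Dnajb9 at 2.34 and Ero1lb at 1.5, and Txndc11 at 0.514 and Hyou1, a large ER chaperone, at 0.375. ER-associated degradation had 1 of 17 higher (Herpud1, 1.68) and 5 lower, among them Edem1 at 0.486 and Syvn1 at 0.514. None of 17 translocon genes was higher by the fold and 4 were lower, with Sec61a1 at 0.497 and Ssr3 at 0.494. Among cytosolic heat shock genes 6 of 12 were higher and 0 lower, with Dnajb1 at 4.19 and Hspb1 at 3.31.

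The genes most like each of the 10 were sought by the Pearson correlation of log2(CPM + 10) over the same 26 groups, among 7784 genes that reached 50 CPM in any group. Hspa5 was most like Manf (0.85), Nucb2 (0.84) and Ddah2 (0.81), and Hsp90b1 most like Manf (0.94), Pdia3 (0.93) and Selenof (0.90). Pdia3 was also among the 3 closest to Calr (0.93), Pdia4 (0.94) and Pdia6 (0.91). Xbp1 was most like Tnfrsf1a (0.83), Cebpd (0.83) and Flot1 (0.81), and Ddit3 most like Eif1 (0.86), Atf4 (0.86) and Slc25a33 (0.80). Serpinh1 was close to Fstl1 (0.98) and Gxylt2 (0.97), Sdf2l1 was most like Cyp27a1 (0.82), Zfp385a (0.81) and Pgls (0.80), and Creld2 most like Tmed3 (0.85), Gpx4 (0.85) and Ddost (0.84). Among the 10 themselves, Hsp90b1 and Pdia6 were at 0.92 and Calr and Pdia6 at 0.92, whereas Ddit3 had a negative correlation with each of the others but Xbp1 (0.07), down to -0.73 with Calr. Groups of 1 library share its preparation and depth, and no test was made of these values.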

How the data were processed

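The deposited files hold raw UMI counts per gene and barcode. Per the file headers the authors made them with Cell Ranger 3.0.2, whereas their methods name another version, and the build the labels give, GRCh38, is a human one, so coordinates come from RefSeq alone. Kept barcodes had at least 200 genes and at most 20% mitochondrial UMIs (453 of 6161 failed). Scrublet's own threshold marked 17 doublets, too few, so the highest scores were removed at 0.8% per 1000 barcodes (106). Counts were scaled to 10000 per cell, and 2000 variable genes outside all gene lists, 30 components and 15 neighbours entered Leiden clustering at resolution 1 (scanpy 1.11.5, leidenalg 0.10.2), after regressing out mitochondrial share. A class name needed 3 markers. UMIs were summed per class and day with at least 20 cells. Ratios carry exact conditional binomial intervals. These were checked on simulated Poisson counts only, so the check does not cover further variation between cells.

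Named outside the 10 genes are the 2 largest and 2 smallest ratios of each list at day 7 against day 0 in fibroblast-like or day 14 against day 3 in monocyte/macrophage-like cells, the 3 most alike genes, and the 2 leading genes of a cluster. The genes and lists were chosen with earlier results of these data known. No protein sequences were used here. A cluster and a gene that the naming rule selects are not reported here. Alternatives varied clustering, doublet and mitochondrial filters, denominators, weighting of cells, pseudocount, count filter and fold, and 2 were added after the data were seen.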

Additional observations from a re-analysis of the deposited data

Results flagged for a closer look

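Some of the 10 genes lay at least 1.5 times apart in opposite directions in 2 classes under the same pair of days, with both counting intervals clear of 1. The difference between the classes was not tested, since each day is 1 library. At day 14 against day 3, Ddit3 stood at 3.51 times in monocyte/macrophage-like cells and at 0.553 times in smooth muscle-like cells. Sdf2l1 stood at 1.52 times in dendritic-like cells, 0.493 in fibroblast-like cells and 0.512 in smooth muscle-like cells, but the dendritic-like value was 0.919 with libraries clustered separately. Serpinh1 stood at 10.0 times in monocyte/macrophage-like cells, where collagen chains went up alongside, and at 0.614 in smooth muscle-like and 0.503 in endothelial-like cells. By averaging over cells, the smooth muscle-like values of Ddit3, Sdf2l1 and Serpinh1 at day 14 against day 3 were 0.784, 0.719 and 0.785, short of the fold. At day 14 against day 7, Serpinh1 stood at 2.98 times in monocyte/macrophage-like cells, 0.497 in smooth muscle-like cells and 0.501 in endothelial-like cells. The smooth muscle-like value of day 14 against day 7 was 1.03 without the sub-cluster led by Saa3 and Lcn2, so that the opposite direction was lost there. The endothelial-like values rest on few cells, since without the deepest 5% of cells Serpinh1 stood there at 427, 1059 and 1022 CPM on days 3, 7 and 14, which turns the direction of day 14 against day 3.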

How the results depend on the processing

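The summed level of the 10 genes was, as a ratio, 0.976 (fibroblast-like cells, day 3 against day 0), 1.08 (day 7 against day 0), 0.764 (day 14 against day 0) and 0.710 (day 14 against day 7), at 0.655 and 0.540 in smooth muscle-like cells (day 14 against days 3 and 7) and at 0.778 in monocyte/macrophage-like cells (day 14 against day 3). Of 91 values under other settings, 60 lay inside the counting interval and 31 outside it. By averaging CPM over cells it was 1.12 for fibroblast-like cells, day 3 against day 0, 0.994 for fibroblast-like cells, day 7 against day 0, 0.817 for fibroblast-like cells, day 14 against day 0, 0.822 for fibroblast-like cells, day 14 against day 7, 0.867 for smooth muscle-like cells, day 14 against day 3 and 0.819 for smooth muscle-like cells, day 14 against day 7. Without mitochondrial and ribosomal protein genes in the total it was 1.03 for fibroblast-like cells, day 3 against day 0 and 0.696 for fibroblast-like cells, day 14 against day 7. Centred on the median of all genes it was 1.04 for fibroblast-like cells, day 3 against day 0, 1.10 for fibroblast-like cells, day 7 against day 0, 0.784 for fibroblast-like cells, day 14 against day 0, 0.684 for smooth muscle-like cells, day 14 against day 3, 0.564 for smooth muscle-like cells, day 14 against day 7 and 0.858 for monocyte/macrophage-like cells, day 14 against day 3. Without the deepest 5% of cells it was 0.957 for fibroblast-like cells, day 3 against day 0, 1.02 for fibroblast-like cells, day 7 against day 0, 0.748 for fibroblast-like cells, day 14 against day 0, 0.736 for fibroblast-like cells, day 14 against day 7, 0.638 for smooth muscle-like cells, day 14 against day 7 and 0.741 for monocyte/macrophage-like cells, day 14 against day 3. With each library clustered on its own it was 1.05 for fibroblast-like cells, day 7 against day 0, 0.746 for fibroblast-like cells, day 14 against day 0, 0.614 for smooth muscle-like cells, day 14 against day 3 and 0.409 for smooth muscle-like cells, day 14 against day 7. Without the sub-cluster led by Saa3 and Lcn2 it was 1.03 for fibroblast-like cells, day 7 against day 0, 0.744 for fibroblast-like cells, day 14 against day 7, 0.766 for smooth muscle-like cells, day 14 against day 3 and 0.857 for smooth muscle-like cells, day 14 against day 7. With at most 10% mitochondrial UMIs it was 0.699 for fibroblast-like cells, day 14 against day 7. At cluster resolution 2 it was 0.512 for smooth muscle-like cells, day 14 against day 3 and 0.431 for smooth muscle-like cells, day 14 against day 7. The direction of the 5 comparisons with day 14 held in all of these, and those of days 3 and 7 against day 0, close to 1, did not. Of 1261 single-gene values, 55 lay on the other side of 1 from the reported ratio, 25 of them in smooth muscle-like cells of day 7 against day 3 and 0 at day 14 against day 0 in fibroblast-like or day 14 against day 3 in monocyte/macrophage-like cells. From a reported ratio past 1.5 times, 7 did so: without the Saa3 and Lcn2 sub-cluster Calr (1.01), Pdia6 (1.03) and Serpinh1 (1.03) in smooth muscle-like cells of day 14 against day 7 and Sdf2l1 (0.80) of day 7 against day 3, Sdf2l1 (0.741) in the latter by averaging over cells, Serpinh1 (0.915) in monocyte/macrophage-like cells of day 7 against day 3 with at most 10% mitochondrial UMIs, and Sdf2l1 (0.919) in dendritic-like cells with each library clustered on its own. The causes were not tested. The 2 settings added after the data were seen, without the shallower copy of shared barcodes and with cells of at least 2000 UMIs, moved none of the 7 summed ratios outside its interval. No paired analysis was possible because each group is 1 library.

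Day 0 held 329 cells and no immune-like class or endothelial-like class of 20 cells, so only fibroblast-like cells were followed from before injury. Intervals leave out variation between animals, and pooled vessels of 1 library give no estimate of it. Class names were rebuilt from markers. Creld2, Ddit3 and Serpinh1 had too few UMIs for a comparison in dendritic-like cells of day 14.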

Other observations

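Unnamed cells, which entered no comparison, numbered 500 and had a summed level of the 10 genes of 7846 CPM, with Hspa5 at 1402, Serpinh1 at 2178 and Ddit3 at 63.6 CPM. The erythrocyte-like cluster of 63 cells had 2357 CPM, with Serpinh1 at 756 CPM.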
